A study of Mus musculus with 10 samples.

Results

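Orphan and adhesion G protein-coupled receptors are described here in CD36-positive and CD36-negative cells sorted from the mouse retina. The receptor genes were chosen by name: every symbol that starts with Gpr and a digit, or with Adgr, except Gpr34, Gpr84 and Gpr183. This gave 98 genes of the 21869 in the table, 71 named Gpr and 27 named Adgr. RNA sequencing counts were available for 10 libraries from mice labelled WT (wild type), 5 of CD36-positive cells (numbered 1, 2, 3, 4 and 7) and 5 of CD36-negative cells (numbered 1, 2, 4, 7 and 8). All 10 came from live CD11b-positive cells with intermediate CD45, a gate that the labels call microglia, and CD36, a scavenger receptor that takes up lipids, divided the gate. The treatment protocol describes 20 mg/kg of sodium iodate, which kills retinal pigment epithelial cells, or phosphate-buffered saline into a vein and collection of eyes 7 days later, but no label ties a sorted sample to either treatment or gives an age. Nothing in the labels says whether the 5 samples of a group came from separate mice or pools, so the p-values measure the spread between these samples, which may be partly technical. 

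G protein-coupled receptors cross the membrane in 7 helices and pass an outside signal to G proteins inside the cell, which then change cyclic AMP, calcium or the cytoskeleton. Those called orphan have no agreed natural ligand, although many with a Gpr symbol have since been given one: protons, lysophospholipids, fatty acid derivatives or metabolites. Adhesion receptors carry a long extracellular part with adhesion domains, are usually cut by themselves near the membrane, and include surface markers of macrophages and other leukocytes. Some proteins with a Gpr symbol sit in the Golgi or lysosome and have no shown coupling to G proteins.

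Promoters are shown for 3 receptor genes that the results turn on: Gpr65, which was higher in CD36-positive cells, its sequence relative Gpr132, which was lower, and Adgre4, the adhesion gene with the most counts among those that were over 10 times lower. The sequences are those of RefSeq on build GRCm38.p6, from 250 bases before to 50 after an annotated transcript start, in the direction of the gene. The windows are chr12:98268385-98268684 (plus strand) for Gpr65, chr12:112860867-112861166 (minus strand) for Gpr132 and chr17:55749734-55750033 (plus strand) for Adgre4. Capitals mark GAGGAA, the PU.1-type core of the ETS transcription factors, read on either strand, with no overlap with another motif searched. PU.1 is a myeloid member of that family. Other forms of the ETS core were not searched, so a window without capitals may still hold one.
Gpr65: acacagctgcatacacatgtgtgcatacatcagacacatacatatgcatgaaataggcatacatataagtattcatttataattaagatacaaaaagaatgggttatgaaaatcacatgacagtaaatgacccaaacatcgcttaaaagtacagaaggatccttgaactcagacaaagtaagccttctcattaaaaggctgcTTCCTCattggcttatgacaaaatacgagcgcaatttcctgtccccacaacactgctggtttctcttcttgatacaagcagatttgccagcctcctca
Gpr132: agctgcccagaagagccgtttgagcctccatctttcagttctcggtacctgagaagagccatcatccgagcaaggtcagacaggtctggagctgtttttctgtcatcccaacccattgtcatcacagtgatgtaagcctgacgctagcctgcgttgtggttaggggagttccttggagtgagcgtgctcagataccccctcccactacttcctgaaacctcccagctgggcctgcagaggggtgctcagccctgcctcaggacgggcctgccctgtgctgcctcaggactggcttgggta
Adgre4: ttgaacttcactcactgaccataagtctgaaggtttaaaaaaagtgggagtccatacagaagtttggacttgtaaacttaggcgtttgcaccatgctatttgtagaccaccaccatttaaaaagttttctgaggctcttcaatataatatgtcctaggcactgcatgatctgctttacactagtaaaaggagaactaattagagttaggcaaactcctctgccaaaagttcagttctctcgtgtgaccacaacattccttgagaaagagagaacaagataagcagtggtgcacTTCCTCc
The Gpr65 and Adgre4 windows each held GAGGAA once, on the opposite strand, and the Gpr132 window did not hold it. RefSeq windows were at hand for 6 of the 11 receptor genes that passed the test below, and 2 of these 6 (33.3%) held the motif, against 28.3% of all 32851 promoter windows of 300 bases. The AP-1 motif TGANTCA (7.8% of all windows) and the cAMP response element TGACGTCA (1.8% of all windows), searched on both strands, were in 0 of the 6. The 2 genes with GAGGAA were Gpr65, which rose, and Adgre4, which fell. A set of 6 windows is too small to say whether its share differs from that of all windows.

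Most of these receptor genes had few or no RNA counts in the sorted cells. Of the 98 genes, 7 had no count in any library (Gpr1, Gpr21, Gpr26, Gpr27, Gpr135, Gpr139 and Gpr143), 56 had some counts but stayed below the filter on low counts, and 35 were tested. A gene that enters only through the group where it is high had to differ, so the counts below describe the 35 and not the whole family. In edgeR's quasi-likelihood test with adjustment over 11596 genes, 2 of the 35 rose in CD36-positive cells (5.71%, against 2.61% of all tested genes) and 9 fell (25.7%, against 4.74% of all tested genes), 11 in all (31.4%, against 7.36%). The 2 that rose were Gpr65 and Adgre1. Those that fell included Adgre4, Adgre5, Adgrg6, Gpr18, Gpr132, Gpr137b, Gpr141 and Gpr171. Of these, Adgre4, Adgrg6 and Gpr141 would not have met the filter on their CD36-positive libraries alone. Their falls are counted here with that limit. The median log2 fold change (CD36-positive minus CD36-negative) of the 35 was -0.51, beside 0.02 for all genes tested. The libraries of the groups did not overlap in 10 of the 35, 2 with the CD36-positive group on top and 8 with it below, against 2.59% and 5.83% of all tested genes; all 10 were among the 11 that passed.

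**Figure D1:**
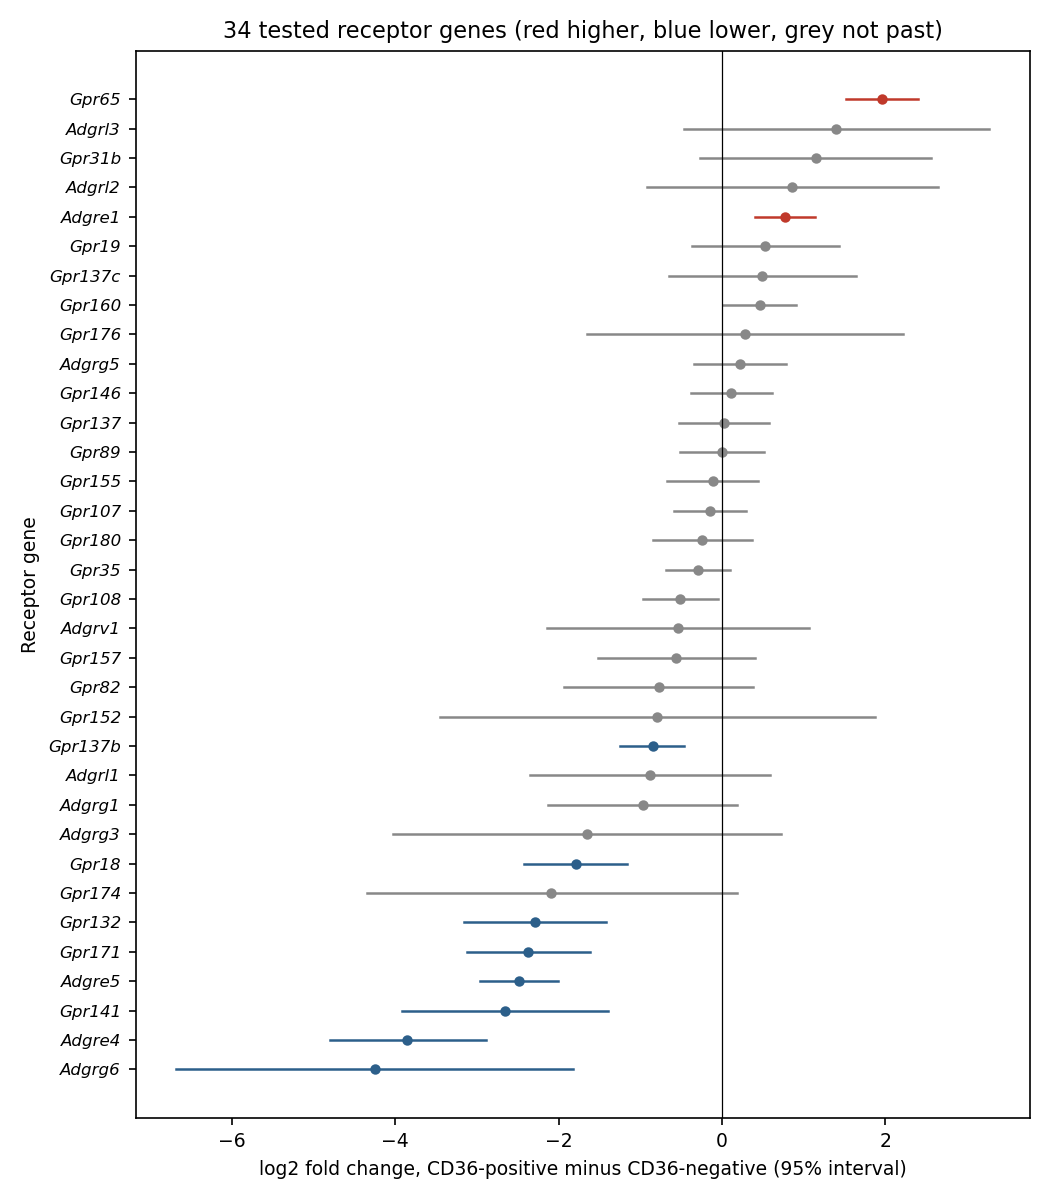
Log2 fold change between CD36-positive and CD36-negative cells for 34 of the 35 tested receptor genes, with 95% intervals from edgeR. Points right of 0 are higher in CD36-positive cells; Gpr65 (1.96) and Adgre1 (0.77) are the 2 in red, and the 8 in blue run from -0.85 (Gpr137b) to -4.25 (Adgrg6).

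Total counts per library ran from 5001692 to 13250984, and a count of 3 in 1 library corresponds to 0.238 to 0.558 CPM (counts per 1000000 counts of the library, scaled by TMM, a factor that evens out library composition). Cd36 itself was at a mean of 219 against 50.3 CPM, on the side its label gives in every library. CD36-positive libraries 1 and 3 stood apart on the second and the third principal components, and without them, an alternative chosen after seeing the data, 2 receptor genes rose and 10 fell. All 12 microglia markers were tested and 0 passed, and their summed levels overlapped (8960 to 19300 against 8410 to 19700 CPM). Marker lists of other leukocytes had members that fell in CD36-positive libraries: dendritic cells (13 of 14 tested markers fell; summed 38.1 to 116 against 821 to 1230 CPM), monocytes (9 of 13 fell; 507 to 989 against 1410 to 2450 CPM), neutrophils (8 of 9 fell; 87.1 to 199 against 434 to 925 CPM, with Ly6g, Ngp and Retnlg at 0 in the CD36-positive group) and T and NK cells (6 of 7 fell; 4.28 to 21.3 against 78.5 to 415 CPM, with Prf1 at 0 in the CD36-positive group). B cell markers showed no call among 3 tested (29.2 to 46.3 against 16.8 to 42.5 CPM). Of the 8 tested markers of border macrophages, which sit at the edges of nervous tissue, 2 rose and 1 fell, with a median log2 fold change of -0.76, while the summed level was 911 to 1240 CPM in the CD36-positive and 363 to 1010 CPM in the CD36-negative group. These marker levels moved with the receptor genes that fell, and their part in each of those results was not tested; in such bulk samples fewer cells of a type and less RNA per cell cannot be told apart.

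Proton-sensing receptors split in direction. Gpr4, Gpr65 and Gpr132 are related receptors known for responding to extracellular acid; Gpr65 rose, Gpr132 fell and Gpr4 was below the filter. Gpr65, which raises cyclic AMP in acid and is found mostly on leukocytes, was at 630, 501, 457, 369 and 419 CPM in CD36-positive libraries 1, 2, 3, 4 and 7. CD36-negative libraries 1, 2, 4, 7 and 8 held 164, 115, 92.2, 94.0 and 145 CPM. The lowest CD36-positive library was thus above the highest CD36-negative one. The fold change was 3.89 (95% interval 2.86 to 5.28; log2 fold change 1.96, SE 0.21, edgeR adjusted p = 1.19e-05).

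Gpr132, a weaker acid sensor that oxidised fatty acids can activate, had 10.2, 2.60, 2.72, 3.15 and 6.02 CPM in the CD36-positive group and 28.2, 19.0, 32.2, 19.5 and 21.1 CPM in the other, in the same order of libraries and without overlap. It was 4.89 times higher in CD36-negative cells (interval 2.68 to 8.93; log2 fold change -2.29, SE 0.41, edgeR adjusted p = 0.00173). Gpr4, the endothelial member, stayed below the filter with 2 counts over the CD36-positive and 44 over the CD36-negative group, 37 of the latter in CD36-negative library 1.

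Per kilobase of exon, the scale on which genes can be compared, Gpr65 was above Gpr132 in both groups. Its level was 230 CPM per kilobase in CD36-positive and 59.0 in CD36-negative cells, while Gpr132 was at 1.82 and 8.84. On GRCm38 both are protein-coding genes of chromosome 12: Gpr65 from 98268635 to 98276644 and Gpr132 from 112850873 to 112868228. A predicted gene, Gm47566, overlaps Gpr65 exons on the opposite strand, and no source used here says whether strand was used in counting.

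**Figure D2:**
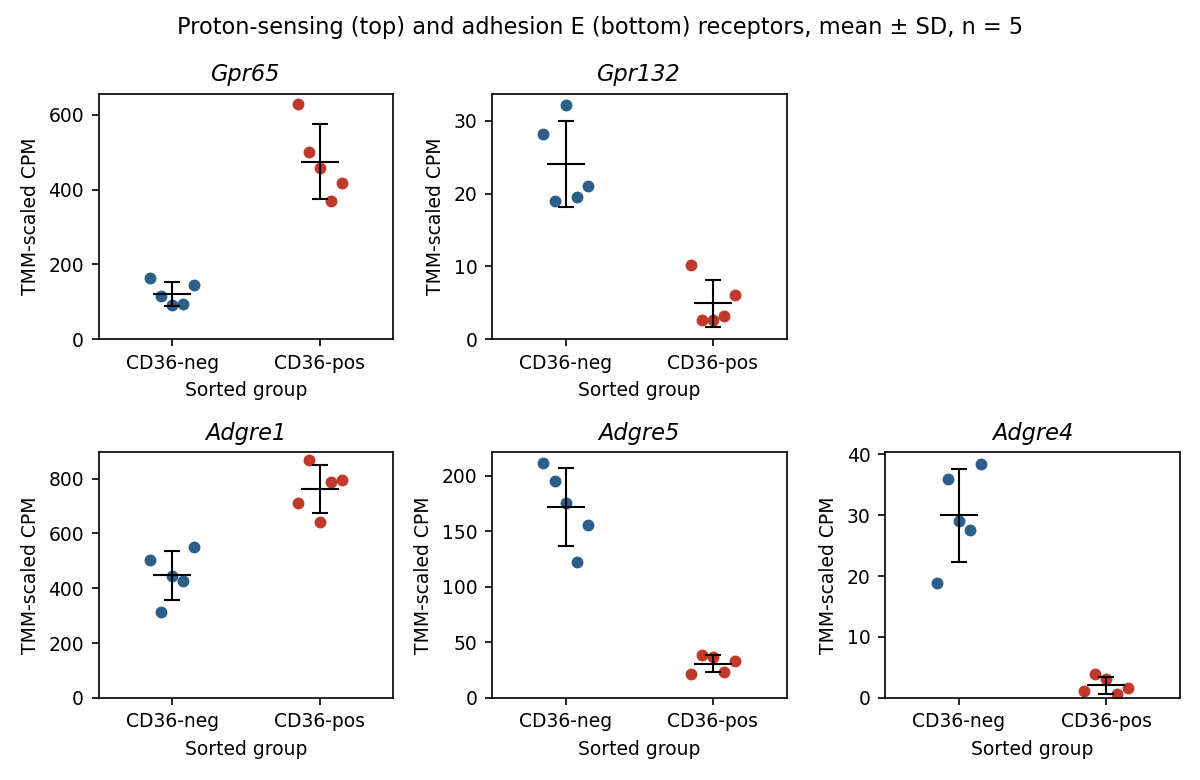
TMM-scaled CPM of the proton-sensing receptor genes Gpr65 and Gpr132 (top) and the 3 adhesion E genes (bottom) in each of 5 CD36-negative (blue) and 5 CD36-positive (red) libraries, with mean and SD in black and axes from 0. Gpr65 and Adgre1 are higher in CD36-positive cells and the other 3 lower, without overlap of the groups in any panel.

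The adhesion E subfamily also split, with 1 of 3 members higher and 2 lower. Adgre1 encodes F4/80, the classical surface marker of mouse macrophages, and was the most abundant receptor gene of the set per length, at 235 CPM per kilobase in CD36-positive and 138 in CD36-negative cells. CD36-positive libraries held 712, 869, 642, 789 and 795 CPM, and CD36-negative libraries 502, 313, 444, 427 and 549 CPM. The groups did not overlap, though the step was small: 1.70-fold (interval 1.32 to 2.2; log2 fold change 0.77, SE 0.18, edgeR adjusted p = 0.0115). Adgre1 was not past a test against a change of 1 on the log2 scale. The part of the border macrophage markers, whose summed level in 4 of 5 CD36-positive libraries was above that of every CD36-negative one, was not tested.

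Adgre5 encodes CD97, which is widespread on leukocytes and binds CD55. Its values were 21.8, 38.3, 36.8, 23.2 and 33.4 CPM in the CD36-positive group and 212, 195, 176, 122 and 156 CPM in the other. No library of one group came near the other. The level was 5.60 times higher in CD36-negative cells (interval 4.04 to 7.77; log2 fold change -2.49, SE 0.22, edgeR adjusted p = 2.30e-06), the smallest p among the 35 receptor genes. Adgre4, a myeloid receptor close to F4/80 in structure, was at 1.12, 3.84, 3.15, 0.563 and 1.66 CPM against 18.9, 35.9, 29.0, 27.6 and 38.5 CPM, also without overlap. It was 14.4 times higher in CD36-negative cells (interval 7.40 to 27.9; log2 fold change -3.85, SE 0.45, edgeR adjusted p = 3.16e-05).

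Adgre4 and Adgre1 both lie on the plus strand of chromosome 17, from 55749984 to 55853662 and from 57358691 to 57483527 on GRCm38, and moved in opposite directions. Adgre5 lies on chromosome 8 from 83723251 to 83741326 and shares exon sequence with Ddx39 on the opposite strand. Ddx39, at 87.5 against 79.8 CPM, was not past the test (0.13 on the log2 scale, interval -0.27 to 0.54). Adgre5 is 1 of 4 receptor genes whose deposited counts were not all whole numbers.

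**Figure D3:**
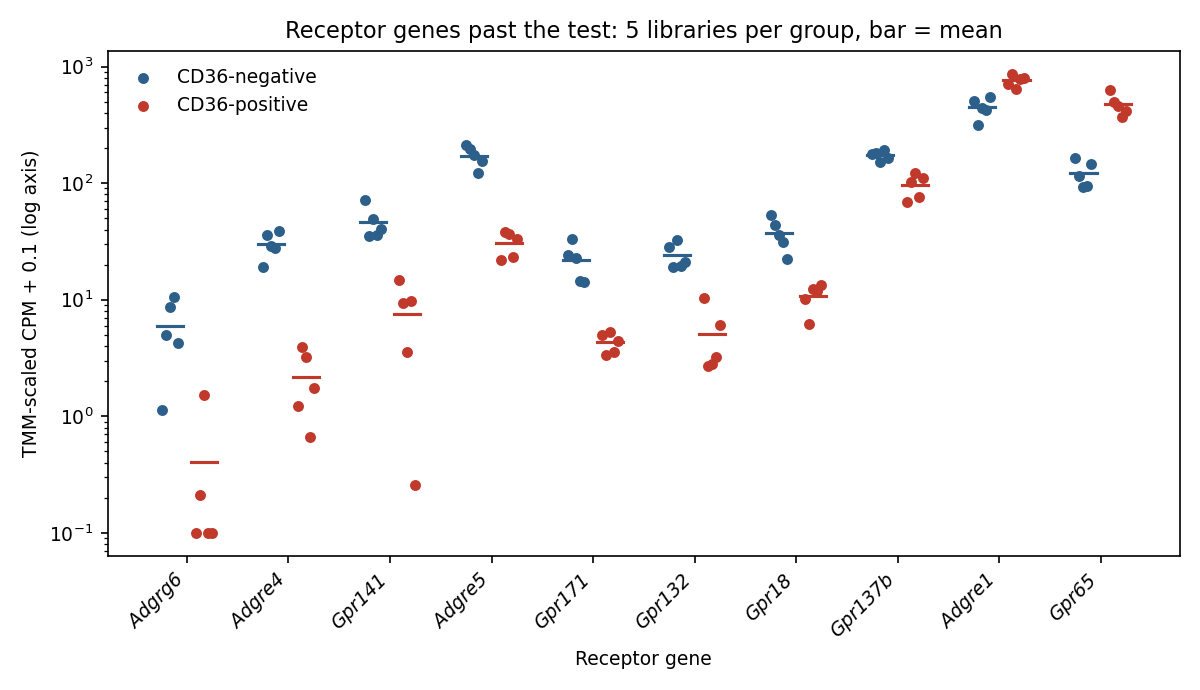
TMM-scaled CPM (plus 0.1, log axis) of 10 of the 11 receptor genes past the test, in 5 CD36-negative (blue) and 5 CD36-positive (red) libraries, with bars at the means. The groups overlap only for Adgrg6, and 1 CD36-positive library of Gpr141 lies far below the rest of its group.

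Among the adhesion G receptors 1 of 4 tested genes passed. Adgrg6 (GPR126), known for its part in myelination by Schwann cells, was at 0.113 CPM in CD36-positive library 2, at 1.43 CPM in library 3 and without a count in libraries 1, 4 and 7. The CD36-negative libraries held 1.03, 4.83, 8.59, 10.4 and 4.18 CPM. CD36-positive library 3 overlapped with CD36-negative library 1. The log2 fold change was -4.25 (SE 1.15, edgeR adjusted p = 0.0315) on 11 against 294 counts, and the call was lost in 7 of the 10 fits without 1 library (those without 1, 2 or 4 of the CD36-positive or 2, 4, 7 or 8 of the CD36-negative group; edgeR adjusted p 0.0518 to 0.093). Without CD36-positive library 3 it was -7.15.

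Adgrg1 (GPR56), a receptor of brain development that microglia also carry, was not past the test at 18.2 ± 11.4 against 35.7 ± 26.7 CPM (mean ± SD, n = 5 each; log2 fold change -0.97, interval -2.13 to 0.19, edgeR adjusted p = 0.334). It varied within both groups: 10.8, 4.40, 34.1, 22.6 and 19.2 CPM in the CD36-positive group and 8.58, 10.3, 34.9, 66.5 and 58.3 CPM in the other. CD36-negative libraries 1 and 2 were the lowest of their group and libraries 7 and 8 the highest. The summed 12 microglia markers had the same 2 lowest and 2 highest CD36-negative libraries, at 9690, 8410, 13100, 19100 and 19700 CPM. In the CD36-positive group the orders differed: the marker sum was 8960, 13700, 11500, 19300 and 18800 CPM, while Adgrg1 was highest in library 3. Its neighbours on chromosome 8, Adgrg5 and Adgrg3, did not pass either (log2 fold changes 0.22 and -1.65). Without CD36-positive library 3 Adgrg3 was at -3.58 (edgeR adjusted p = 0.116), and without libraries 1 and 3 at -5.02 (edgeR adjusted p = 0.0514). Adgrg5 was at 40.0 ± 6.94 against 34.3 ± 15.5 CPM, and Adgrg3 (GPR97), a receptor known from granulocytes, at 0.853 ± 1.40 against 2.62 ± 1.61 CPM.

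**Figure D4:**
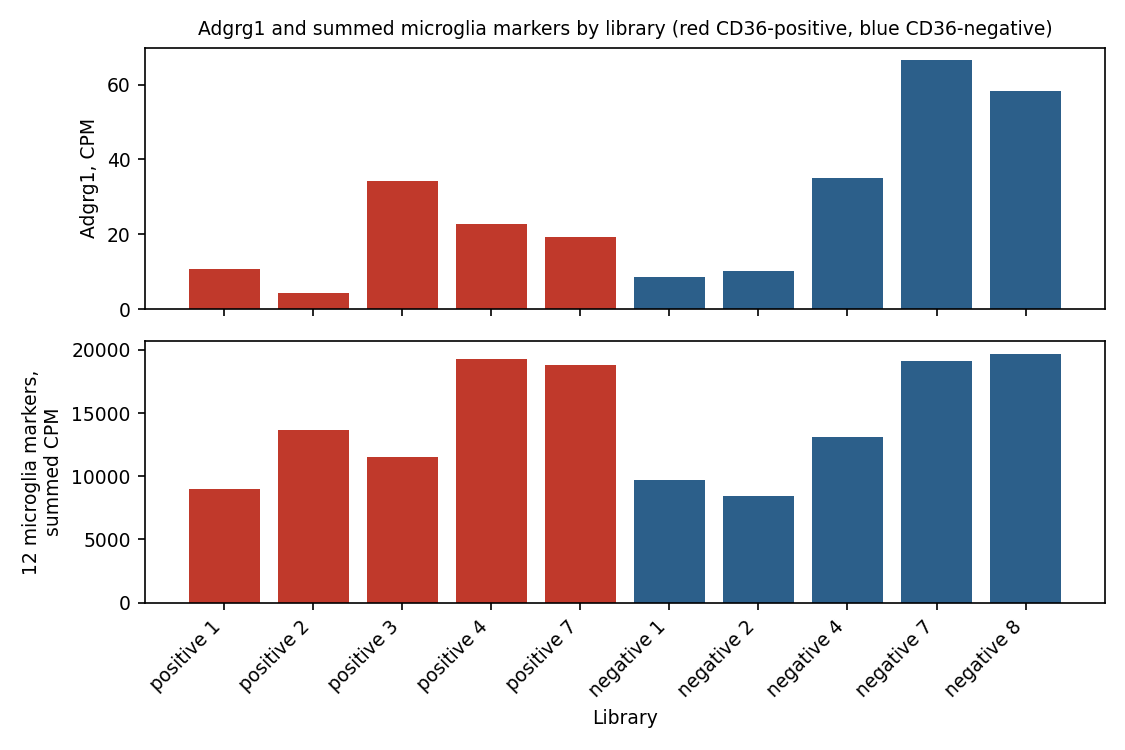
Adgrg1 (top, CPM) and the sum of 12 microglia markers (bottom, CPM) in each of the 10 libraries, CD36-positive in red and CD36-negative in blue. CD36-negative libraries 1 and 2 are low and 7 and 8 high in both panels, while among CD36-positive libraries the orders differ.

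The remaining adhesion receptors that were tested had low counts. Latrophilins Adgrl1, Adgrl2 and Adgrl3, which bind neuronal adhesion proteins, were tested at log2 fold changes of -0.88, 0.86 and 1.40, none past the test and all with wide intervals (for Adgrl3 from -0.47 to 3.27). All 3 were found in all 10 libraries. Without CD36-negative library 7 Adgrl3 was at 2.1, and without CD36-positive library 1 Adgrl2 was at -0.18. Adgrv1, the very large receptor of photoreceptor and hair cell links, was at 1.31 against 1.92 CPM (-0.54, interval -2.14 to 1.06), where summed photoreceptor markers were at 132 to 1040 against 436 to 2690 CPM. Adgrv1 was the one tested of 13 adhesion genes outside the E, G and L groups. Adgra2, a co-receptor of Wnt signalling in brain vessels, had 4 counts in the CD36-positive group, all in library 7, and 121 in the CD36-negative group; with no filter its edgeR adjusted p was 0.0572. Summed endothelial markers were at 9.68 to 11.6 against 25.2 to 33.5 CPM, and their part in the counts of Adgra2 and Gpr4 was not tested.

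Of 59 other Gpr receptor genes 13 were tested, and 3 fell: Gpr18, Gpr171 and Gpr141. Gpr18, proposed as a receptor of lipid mediators and found on lymphoid cells, was at 10.0, 6.10, 12.3, 11.7 and 13.4 CPM in the CD36-positive group and 52.8, 43.5, 35.6, 30.9 and 22.3 CPM in the other. It was 3.45 times higher in CD36-negative cells (interval 2.23 to 5.33; log2 fold change -1.79, SE 0.30, edgeR adjusted p = 0.00092), and the groups did not overlap. Gpr171, a receptor of T cells and other leukocytes, was at 4.84, 3.27, 5.16, 3.49 and 4.28 CPM against 24.0, 33.3, 22.6, 14.5 and 14.0 CPM, again with no overlap. Its CD36-negative level was 5.16 times higher (interval 3.05 to 8.72; log2 fold change -2.37, SE 0.36, edgeR adjusted p = 0.000389).

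Gpr141, an orphan of myeloid cells, was at 14.7, 9.26, 3.44, 9.69 and 0.158 CPM in the CD36-positive group and 71.6, 35.1, 48.7, 35.6 and 40.1 CPM in the other. CD36-positive library 7, the deepest of all 10, held the lowest value, 2 counts. The difference was 6.31-fold (interval 2.64 to 15.1; log2 fold change -2.66, SE 0.60, edgeR adjusted p = 0.00981); limma voom with sample weights put it at -4.10. Gpr174, a lysophosphatidylserine receptor of lymphocytes, was at 0.602 ± 0.824 against 2.66 ± 1.88 CPM and not past the test (-2.09 on the log2 scale, interval -4.35 to 0.18); without CD36-positive library 4 it was at -3.03. Gpr55, which lysophosphatidylinositol activates, was below the filter with 12 counts in CD36-positive and 99 in CD36-negative libraries. In CD36-positive libraries 4.28 to 21.3 CPM of summed T and NK cell markers and 38.1 to 116 CPM of summed dendritic cell markers were measured, as given above, and their part in these falls was not tested.

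Gpr18 and Gpr171 each lie wholly inside an intron of another gene. Gpr18, on chromosome 14 from 121911253 to 121915781, is within Ubac2, which did not pass (log2 fold change -0.52, interval -0.98 to -0.05, edgeR adjusted p = 0.177). Gpr171, on chromosome 3 from 59096448 to 59101821, is within Med12l, which was at 18.2 against 10.8 CPM and did not pass (0.74, interval -0.02 to 1.51). The Med12l estimate was of the opposite sign to that of Gpr171, without passing the test. Whether reads of the host genes add to the counts of Gpr18 or Gpr171 was not tested. Gpr141 lies on chromosome 13 from 19749682 to 19824257, with no exon shared with another annotated gene.

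All 8 genes grouped here as encoding proteins of intracellular membranes were tested, and 1 fell. Gpr137b, a protein of the lysosomal membrane that takes part in nutrient signalling, was at 69.4, 102, 121, 76.7 and 111 CPM in the CD36-positive group and 179, 181, 153, 193 and 164 CPM in the other. The groups did not overlap, and the CD36-negative level was 1.81 times higher (interval 1.38 to 2.37; log2 fold change -0.85, SE 0.19, edgeR adjusted p = 0.00791). The other 7 did not pass: Gpr108 at -0.51, Gpr180 at -0.24, Gpr107 at -0.15, Gpr155 at -0.11, Gpr89 at 0.00, Gpr137 at 0.03 and Gpr137c at 0.49. Gpr155, a lysosomal cholesterol sensor, was at 46.6 ± 10.0 against 50.4 ± 18.6 CPM, and its interval ran from -0.67 to 0.44. Gpr108, a Golgi protein, was at 69.0 ± 20.8 against 98.4 ± 11.8 CPM (interval -0.97 to -0.05, edgeR adjusted p = 0.183). Gpr89, the Golgi pH regulator, was at 22.3 ± 4.30 against 22.3 ± 3.24 CPM.

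Among the other surface receptors that did not pass, several were well measured. Gpr35, a receptor for tryptophan metabolites, was at 72.4, 86.6, 69.5, 126 and 89.0 CPM in the CD36-positive group and 118, 99.7, 111, 104 and 112 CPM in the other. CD36-positive library 4 was the highest of all and the other 4 were below every CD36-negative one (log2 fold change -0.29, interval -0.69 to 0.10, edgeR adjusted p = 0.399). Gpr160 was at 78.2 ± 16.2 against 56.9 ± 13.3 CPM (0.46, interval 0.01 to 0.91, adjusted p = 0.226). Gpr146, known for its part in liver cholesterol output, was at 57.3 ± 19.6 against 52.9 ± 9.92 CPM (0.11, interval -0.38 to 0.61). For 10 of the 24 genes that did not pass the interval lay within 1 log2 unit of 0: Adgrg5, Gpr35, Gpr89, Gpr107, Gpr108, Gpr137, Gpr146, Gpr155, Gpr160 and Gpr180. For the other 14 the data do not limit the difference that closely.

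Gpr82, an orphan nested in an intron of Cask, split within the CD36-positive group. It was at 19.0 and 20.6 CPM in libraries 1 and 3 and at 3.39, 5.97 and 1.82 CPM in libraries 2, 4 and 7, against 11.8 to 25.8 CPM in CD36-negative libraries. Over all 10 libraries it did not pass (log2 fold change -0.77, edgeR adjusted p = 0.453). CD36-positive libraries 1 and 3, the 2 that stood apart, were thus also those with its high values in that group. Without them, an alternative chosen after seeing the data, Gpr82 was at -2.22 (edgeR adjusted p = 0.00916). This p follows from leaving out the high values and adds no support for a difference. The other 5 tested receptors, Gpr19, Gpr31b, Gpr152, Gpr157 and Gpr176, did not pass, with log2 fold changes of 0.53, 1.15, -0.79, -0.56 and 0.28.

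Ranked by level per kilobase of exon over all 10 libraries, the 6 most abundant of the 35 were Adgre1 (187 CPM per kilobase), Gpr65 (144), Gpr108 (29.3), Adgre5 (27.0), Gpr137b (26.9) and Gpr35 (20.4). Adgre1 and Gpr65 stood well above the other 4. In CD36-positive cells the means of Adgre1 and Gpr65 were nearly equal (235 and 230), whereas in CD36-negative cells Gpr65 was at 59.0 and Adgre1 at 138. Adgre5 was at 45.8 in CD36-negative cells, behind Adgre1 and Gpr65 alone among the 35, and at 8.17 in CD36-positive cells. The lowest of the 35 was Adgrv1 at 0.0648.

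Of the 63 receptor genes below the filter 22 had at least 30 counts in all, and none had an adjusted p under the 0.05 threshold when edgeR was run without a filter. Gpr85 and Gpr162, with the most counts, and Gpr22 were found in all 10 libraries, with 81 against 70, 48 against 89 and 58 against 48 counts over the CD36-positive and the CD36-negative group. In several, 1 library held most of the CD36-positive counts. Gpr52 had 44 of its 60 CD36-positive counts in library 2, Gpr75 had 44 of 79 in library 1, Gpr83 had 48 of 79 in library 3, Gpr142 had 20 of 34 in library 1, and Gpr12 had 28 of 47 in library 1; over the CD36-negative group these 5 had 7, 11, 18, 1 and 2 counts. Gpr12 was nevertheless above 0 in 5 of 5 CD36-positive libraries and Gpr75 in 4 of 5; Gpr52 was found in 2 of 5, Gpr83 in 3 and Gpr142 in 3. Gpr179, a protein of retinal ON bipolar cells, had 18 counts in CD36-positive and 34 in CD36-negative libraries, 26 of these in CD36-negative library 4; the summed markers of bipolar cells and inner retinal neurons were at 16.1 to 42.2 against 32.9 to 94.1 CPM.

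Adhesion genes of this kind were Adgra3 with 57 against 45 counts, Adgrf2 with 16 against 39, Adgrl4, an endothelial receptor, with 12 against 39, Adgrf4 with 29 against 9 and Adgrf5 with 29 against 4. The others were Gpr20 with 26 against 23 counts, Gpr37 with 15 against 30, Gpr153 with 32 against 4, Gpr45 with 5 against 27 and Gpr33 with 6 against 24. At such totals no difference was detected by the test, which does not show that the groups were alike.

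The machinery downstream of the receptors changed in a minority of genes. In a list of 93 G protein signalling genes, 91 were in the table and 67 were tested. Of the 67, 2 rose (Arrb2 and Pde7b) and 10 fell, beside 2.61% and 4.74% of all genes. The share that rose was thus near that of all genes, and the share that fell was above it. The list's median log2 fold change was -0.16. The leukocyte marker sums given above (dendritic cells, monocytes, neutrophils, T and NK cells) were lower in the same CD36-positive libraries, and their part in the 10 falls was not tested. Summed levels of the list overlapped, at 6450 to 7080 against 6290 to 7400 CPM. The main G protein genes did not pass: Gnai2, the subunit that lowers cyclic AMP, was at 532 ± 54.3 against 589 ± 93.3 CPM (-0.15, interval -0.49 to 0.19), and Gnas, which raises it, at 564 ± 104 against 548 ± 143 CPM (0.04, interval -0.38 to 0.47).

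The 4 signalling genes with the smallest p among those that fell were Rgs12, Gna14, Arrdc4 and Rgs3. Rgs12, which speeds the shut-off of G proteins, was at 3.92 ± 0.704 against 44.8 ± 13 CPM (log2 fold change -3.51, SE 0.29). Rgs3, of the same family, was at 17.1 ± 8.5 against 55.9 ± 10.9 CPM (-1.71), and Gna14, a subunit of the Gq class, at 5.23 ± 3.33 against 45.5 ± 20.8 CPM (-3.11). Arrdc4, an arrestin-like protein gene, was at 20.4 ± 6.17 against 64.7 ± 15.6 CPM (-1.66). The others that fell were Adrbk2 (-1.51), a receptor kinase, Pde4b (-1.22), a cyclic AMP phosphodiesterase, and Pik3r5, Arhgef1, Rgs18 and Gnb4. Rgs18 and Gnb4 would not have met the filter on their CD36-positive libraries alone. Arrb2, β-arrestin 2, which binds activated receptors and ends their signal, was at 182 ± 46.3 against 110 ± 7.75 CPM (0.72, SE 0.18, edgeR adjusted p = 0.0222), and Pde7b, another cyclic AMP phosphodiesterase, at 24.0 ± 8.04 against 8.25 ± 4.16 CPM (1.53, edgeR adjusted p = 0.0181). Without CD36-negative library 4 or 8, 0 signalling genes rose, and without CD36-negative library 1 or 2, 1 rose. Rgs10, a regulator abundant in microglia, did not pass (502 ± 58.0 against 376 ± 37.1 CPM, 0.42, interval 0.09 to 0.74, edgeR adjusted p = 0.123).

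**Figure D5:**
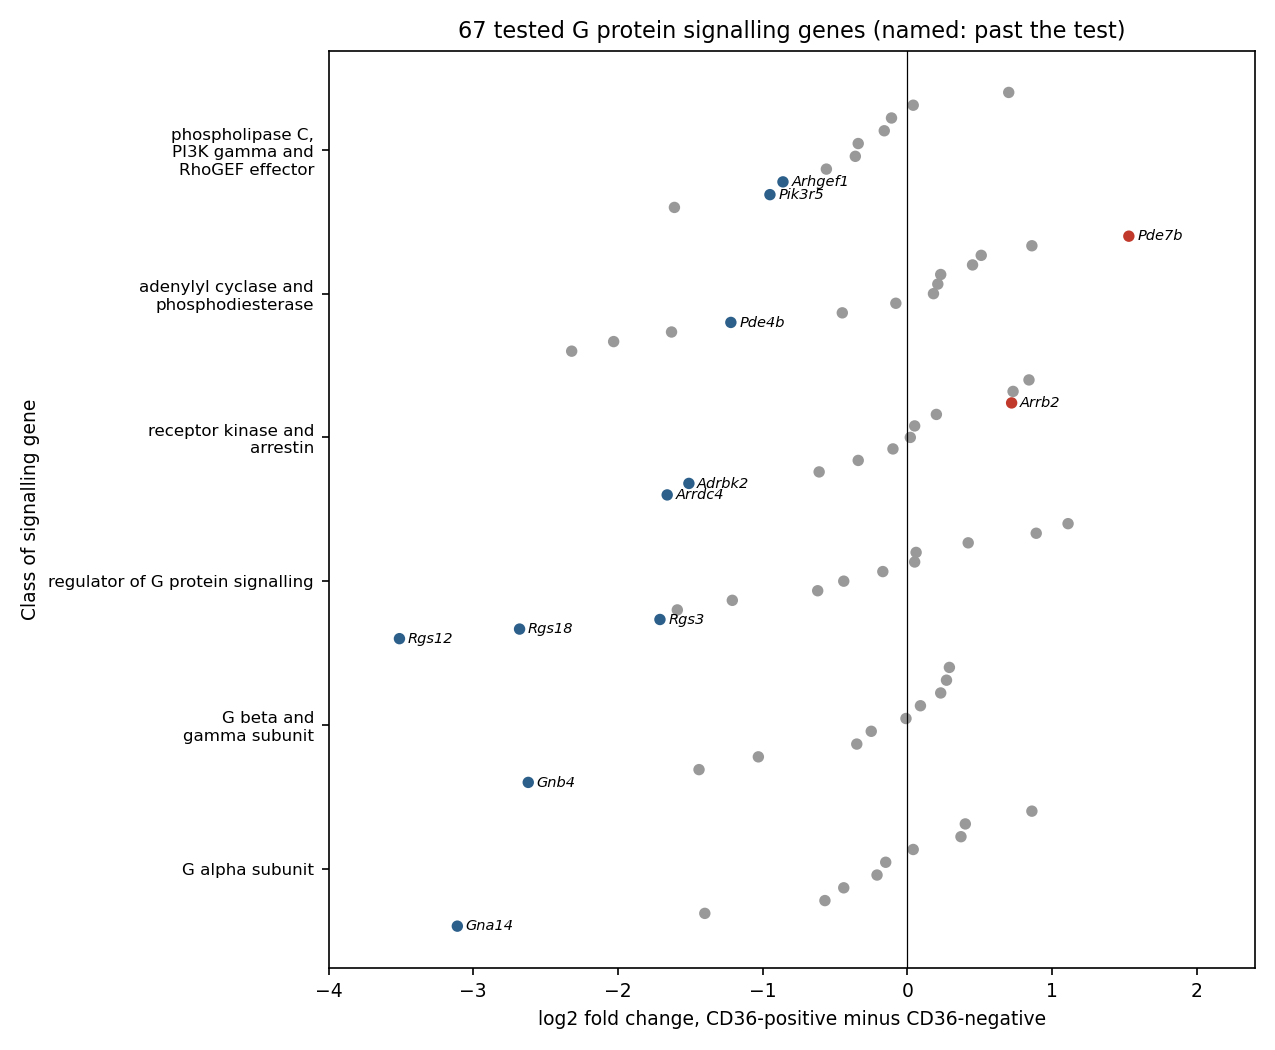
Log2 fold changes of the 67 tested G protein signalling genes in 6 classes; each point is a gene, those past the test are coloured and named (red higher, blue lower in CD36-positive cells). The 10 named genes left of 0 fall in all 6 classes, from -0.86 (Arhgef1) to -3.51 (Rgs12), and the 2 right of 0 are Pde7b (1.53) and Arrb2 (0.72).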

How the data were processed

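Messenger RNA was measured by RNA sequencing in 10 sorted samples. The deposited table gives expected counts (estimated counts per gene symbol, 91.9% of them whole, not normalized), 1 column per library. Tools named in the submitters' processing notes, with no roles, are HISAT2 2.1.0, StringTie 1.3.1, Bowtie2 2.2.8 and fastp 0.18.0, with the build mm10; no source used here names the counting program. Of 22008 lines, 8 damaged and 131 repeated ones were dropped, and counts were rounded.

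Genes kept by filterByExpr (minimum count 10) were TMM-scaled, then tested by edgeR 4.0.16 in R 4.3.3 (quasi-likelihood, group as the only term, Benjamini-Hochberg adjustment over 11596 genes, threshold 0.05). Lengths and positions are from GENCODE vM21 (GRCm38, that is mm10), which matched 97 of the 98 receptor genes. Other settings are in the closing section, with DESeq2 1.42.0 and limma 3.58.1. Pairs of replicates differed beyond counting noise (chi-square per degree of freedom 22.1 to 109).

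The receptor genes and lists were chosen with earlier results of these data known. Receptor genes past the test are given with all 10 values (1 is counted but not reported here), with Adgre1, Adgre5, Adgrg1, Gpr35, Gpr65 and Gpr132 always named; those below the filter are named from 30 counts. Of the signalling genes, up to 4 per direction by p and Gnai2, Gnas, Arrb2 and Rgs10 were named; Adrbk2, Pde4b, Pik3r5, Arhgef1, Rgs18 and Gnb4, the overlapping and host genes and Gpr82 were chosen after their values were seen.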

Additional observations from a re-analysis of the deposited data

Results flagged for a closer look

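Outlying libraries were sought in 70 groups of 5 libraries (35 receptor genes in each of 2 groups). The gap of the highest or lowest library to its neighbour was set against the range of its group. In 6 groups the gap was above 0.71 of the range. Chance alone flags about 1 in 20 groups of normally distributed values. Whether that rate holds for CPM, above all near 0, was not tested. In CD36-positive library 3 Adgrg6 was at 1.43 CPM, with 0.0 to 0.113 in the other 4, and Adgrg3 at 3.30 CPM, with 0.0 to 0.744 in the other 4. In CD36-positive library 1 Adgrl2 was at 13.6 CPM, with 0.143 to 3.83 in the other 4. In CD36-positive library 7 Gpr19 was at 4.6 CPM, with 11.6 to 14.3 in the other 4. In CD36-negative library 1 Adgrg5 was at 61.2 CPM, with 21.6 to 31.8 in the other 4, and in CD36-negative library 2 Gpr152 was at 9.47 CPM, with 0.313 to 1.84 in the other 4.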

How the results depend on the processing

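Of the 11 receptor genes that passed, 6 (among them Adgre4, Adgre5, Gpr65, Gpr132 and Gpr171) kept their call under every alternative run, and none of the 11 changed direction. With 1 library left out, 2 to 2 receptor genes rose and 8 to 10 fell. Tested against a log2 fold change of 1, 1 rose and 5 fell, and at a threshold of 0.01, 1 rose; the first asks for a larger change and the second for a smaller p. Adgrg6 also lost its call with the number of detected genes as covariate (edgeR adjusted p = 0.0734). Of the 24 that did not pass, Gpr82 alone was called in any alternative (limma voom adjusted p = 0.037, and without CD36-positive libraries 1 and 3). Those libraries held its high CD36-positive values.

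The replicate numbers of the sample descriptions did not pair the samples (correlations of deviations 0.0288, 0.133, 0.0989 and 0.101, and 1 of 4 correlated best with its own number). With the replicate block 2 receptor genes rose and 9 fell, and 0 signalling genes rose, so neither Arrb2 nor Pde7b was called; of all genes 184 rose. Adgrg3 was at -4.41 with the replicate block. With the replicate block by title numbers 4 signalling genes rose.

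Of all genes, 533 rose by DESeq2's Wald test, 188 without CD36-positive libraries 1 and 3, 132 to 380 with 1 library left out (303 with all), 6 rose and 214 fell against a log2 fold change of 1, and 90 rose and 330 fell at 0.01. Signalling genes that rose numbered 4 with no filter, 4 by DESeq2's Wald test, 4 with detected genes as covariate, 1 without CD36-positive libraries 1 and 3, 0 to 3 with 1 library left out, and 0 both at 0.01 and against 1, where 2 fell. The cause of these shifts was not tested.

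The sign of 8 uncalled genes turned. For Adgrl2 limma voom gave -0.22 (-0.18 to 1.17 with 1 library left out). Gpr107 was at 0.03 with the replicate block and 0.04 without CD36-positive libraries 1 and 3. Gpr137 was at -0.01 with the block by title numbers, -0.12 by limma voom and -0.25 without those libraries (-0.18 to 0.12 with 1 left out). Gpr176 was at -0.27, -0.58 and -0.17 in the same order (-0.52 to 0.58). Gpr155 was at 0.04 with the replicate block (-0.29 to 0.01). Gpr89 was at 0.00 with DESeq2 size factors and with the stricter filter, -0.01 with no filter and with the block by title numbers, -0.12 with the replicate block and -0.04 with detected genes as covariate (-0.09 to 0.08). With 1 library left out Gpr146 ran from -0.11 to 0.21 and Gpr152 from -1.72 to 0.53. Depth limits the members below the filter, where 3 counts in a library are 0.238 to 0.558 CPM.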

Other observations

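Ligands of adhesion receptors were measured beside the receptors. Of 18 listed ligand genes 9 were tested, 0 rose and 1 fell, beside 2.61% and 4.74% of all tested genes. Their median log2 fold change was -0.64, beside 0.02 for all tested genes. The one that fell was Thy1, a surface protein of T cells and neurons that CD97 can bind. It had 1 count over the CD36-positive and 242 over the CD36-negative libraries (edgeR adjusted p = 0.00057). Thy1 thus passed the filter only through the CD36-negative group. Summed T and NK cell markers were at 4.28 to 21.3 against 78.5 to 415 CPM, and their part in this fall was not tested. Cd55, the best known partner of CD97, was low in both groups and did not pass (1.44 ± 1.34 against 2.22 ± 2.13 CPM). Prnp, the prion protein, whose cleaved end activates Adgrg6 in nerve, was at 201 ± 93.9 against 185 ± 16.5 CPM (log2 fold change 0.12, interval -0.39 to 0.62). Tgm2, transglutaminase 2, a partner of Adgrg1, was at 25.7 ± 8.45 against 43.9 ± 13 CPM and did not pass (-0.77, interval -1.37 to -0.17, edgeR adjusted p = 0.118). Col3a1, a collagen that binds Adgrg1, had 31 counts in CD36-positive and 1 in CD36-negative libraries, below the filter. The ligand genes Thy1, Prnp, Tgm2 and Col3a1 were named after their values were seen.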
